A study of Mus musculus with 23 samples.

Results

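The Slc25 family of mitochondrial solute carriers was examined in connecting tubule and cortical collecting duct dissected from mouse kidneys. Members were the protein-coding genes of the deposited gene tables whose symbol is Slc25a followed by a number, 47 of 54393 genes. Of these, 44 passed the low-count filter and were tested among 25829 genes. The other 3 (Slc25a2, Slc25a31 and Slc25a54) averaged 0.160, 0.0387 and 0.0409 TPM (a length-scaled share of each library's transcripts) and are described by level only.

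All 23 libraries came from mice of the genotype Pax8-rtTA, TRE-LC-1, MRflox/flox, in which doxycycline switches on Cre in cells that express the Pax8 transgene and Cre deletes a floxed part of Nr3c2, the gene of the mineralocorticoid receptor (MR). Pax8 is active along the renal tubule, so the deletion was not designed to be limited to the dissected segments. Knockout was induced with drinking water of 5% sucrose and 2 mg/ml doxycycline over 2 weeks, followed by 2 weeks on a rescue diet. Control mice drank sucrose water without doxycycline, and the labels do not say whether they also ate the rescue diet. For 4 days, controls ate normal potassium (CT-NK, n = 5) or high potassium (CT-HK, n = 6), and knockouts ate normal potassium (KO-NK, n = 6) or low potassium (KO-LK, n = 6). Each knockout comparison is therefore also one of doxycycline against none. The labels number replicates without stating that each is a separate animal, so the tests here rest on a spread among libraries that may be technical.

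Libraries held 16158408 to 34154475 estimated counts. Nr3c2 averaged 108 ± 33.2 CPM (depth-scaled counts with edgeR's TMM factors; SD) in the CT-NK libraries and 108 ± 25.8 in those of CT-HK, against 58.8 ± 10.4 (KO-NK) and 54.3 ± 15.6 (KO-LK). In TPM, which has no composition scaling, the gap was small, at 39.4 ± 11.02 over the 11 control and 34.5 ± 6.94 over the 12 knockout libraries. Of 4 connecting tubule markers (Calb1, S100g, Trpv5 and Slc8a1), 3 were lower and 1 higher (log2 fold change 0.56) in knockouts over both diets. Calb1 and S100g, both calcium-binding proteins, were present throughout but lower in the knockouts. Calb1 averaged 5000.2 CPM over the 11 control and 1291 CPM over the 12 knockout libraries. The 18 proximal tubule markers summed to 485 to 16786 CPM over CT-NK libraries and 275 to 29828 over CT-HK libraries, and to 812 to 5421.5 (KO-NK) and 363 to 1668 (KO-LK) in the knockouts, with CT-HK replicate 6 and CT-NK replicate 5 the highest libraries. Counts on olfactory and vomeronasal receptor genes, which kidney tubule is not known to express at such totals, exceeded 2500 CPM in 3 of 11 control and 5 of 12 knockout libraries. In such dissected tissue, fewer cells of a type and less RNA per cell cannot be told apart.

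Slc25 proteins sit in the inner mitochondrial membrane and exchange nucleotides, phosphate, carboxylates, amino acids and cofactors between the cytosol and the matrix. A few family members work in other membranes, such as Slc25a17 in the peroxisome. The connecting tubule and collecting duct spend ATP on sodium and potassium transport, and the ADP/ATP and phosphate carriers link that use of ATP to its synthesis in the matrix.

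Promoter sequence was available in RefSeq (GRCm38.p6) for 36 of the 47 members, in 46 windows reaching from 250 bases before to 50 after a transcript start. As examples, 4 members are shown: Slc25a29, which fell in both pairs, Slc25a33, which fell against its paralog, and Slc25a24 and Slc25a23, paralogs whose ratio fell in both pairs. Each is given as the 100 bases directly before a start, 5′ to 3′ on the gene's strand, with capitals marking the E-box CACGTG. Slc25a35, described below with Slc25a29, had no entry.
Slc25a29, chr12:108835877-108835976, minus strand: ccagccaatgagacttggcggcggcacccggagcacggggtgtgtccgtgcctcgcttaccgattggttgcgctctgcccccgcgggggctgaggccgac
Slc25a33, chr4:149774268-149774367, minus strand: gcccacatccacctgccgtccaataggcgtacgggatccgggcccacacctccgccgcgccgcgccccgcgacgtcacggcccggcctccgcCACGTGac
Slc25a24, chr3:109123049-109123148, plus strand: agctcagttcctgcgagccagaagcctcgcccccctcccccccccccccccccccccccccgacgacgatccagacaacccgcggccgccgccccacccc
Slc25a23, chr17:57059864-57059963, minus strand: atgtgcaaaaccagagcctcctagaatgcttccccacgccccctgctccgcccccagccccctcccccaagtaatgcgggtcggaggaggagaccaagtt

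All 4 stretches are rich in G and C, between 63.0 and 79.0%. The only E-box among them lies next to the start of Slc25a33. Over the full windows, the E-box CACGTG was found in 8 of the 46 member windows (17.4%) against 7.15% of all 32851 RefSeq promoter windows, and 7 members held it (Slc25a1, Slc25a13, Slc25a14, Slc25a15, Slc25a31, Slc25a33 and Slc25a36). The ETS-type motif CCGGAAG stood in 15.2% of member windows against 8.86% of all windows, and TATAAA in 4.35% against 13.6%. The NRF-1 motif was found in 4.35% of member windows and 4.60% of all windows, and the estrogen-related receptor motif AAGGTCA in 2.17% and 4.72%. The palindromic steroid receptor element had no match in the member windows and was found in 0.475% of all windows, and the YY1 motif had none against 0.852%. Both strands were searched, and each motif was scored on its own as present or absent, whether or not it overlapped another. These shares describe letters in short windows, and the median GC content of the windows also differed, at 59.3% for members and 52.7% for all.

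The family's transcripts were dominated by a few carriers. Averaged over all libraries in TPM, Slc25a5, the main ADP/ATP translocase of these cells, made up 49.98% of the family's total, at 2324 TPM. Slc25a3, which imports phosphate into the matrix, followed at 892 TPM (19.2%), then Slc25a4, the other ADP/ATP translocase, at 284 TPM (6.14%), Slc25a39, a glutathione carrier, at 278 TPM (6.02%), Slc25a11, the 2-oxoglutarate/malate carrier, at 194 TPM (4.19%) and Slc25a1, the citrate carrier, at 75.2 TPM (1.64%). Slc25a4 and Slc25a39 differed by less than the spread between libraries. At the low end, Slc25a54 was at a count of 0 in 15 of 23 libraries and Slc25a31, the testis ADP/ATP translocase, in 8. As a share of each library's counts the family took 0.743 to 0.927% in the control and 0.550 to 0.757% in the knockout libraries, ranges that overlap between 0.743 and 0.757%.

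**Figure D1:**
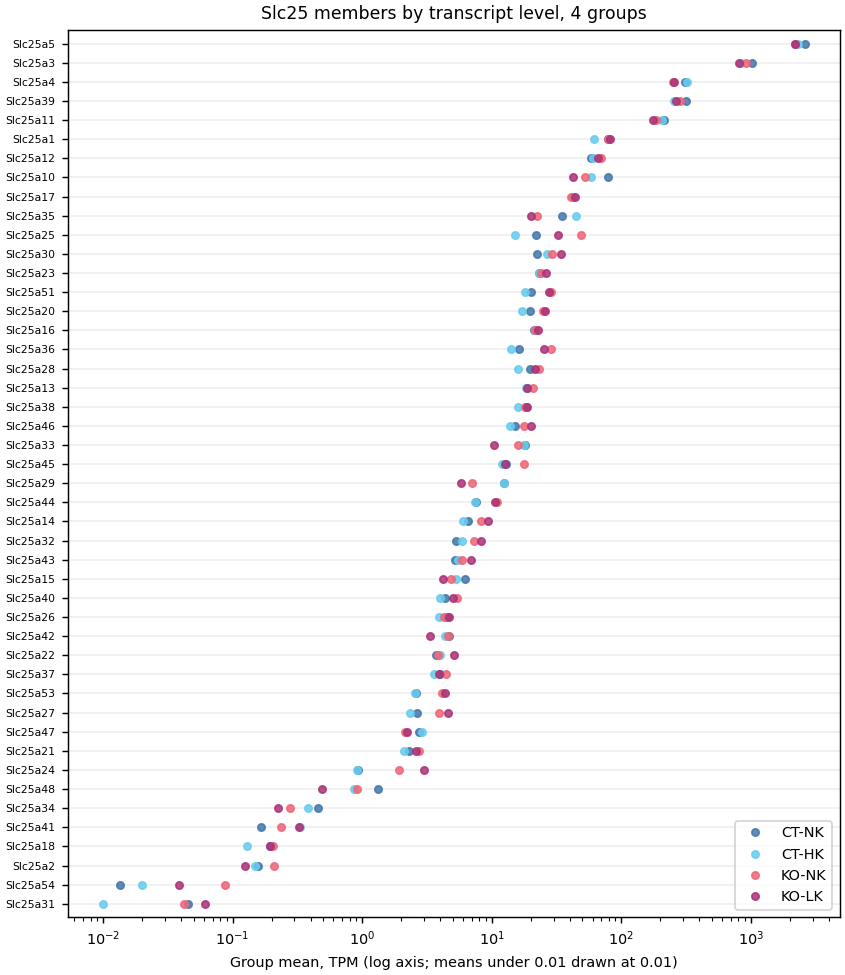
Group mean TPM (log axis) of the members, 1 of them not drawn, ordered by mean level, with 1 point per group of 5 or 6 libraries and means under 0.01 drawn at 0.01. Slc25a5 is at the top, at 2324 TPM over all libraries, and TPM were not scaled for library composition.

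Knockout and control were compared on normal potassium (KO-NK against CT-NK) and, with no library in common with the first, between KO-LK and CT-HK, where the diets also differ. On normal potassium 2 tested members fell, Slc25a29 and Slc25a35, and 0 rose, where 1.7% of all tested genes were called in either direction (0.763% lower, 0.937% higher). Between KO-LK and CT-HK 9 members fell and 1 rose, where 5.49% of all genes were called (3.29% lower, 2.2% higher). Fallen members were Slc25a3, Slc25a4, Slc25a11, Slc25a13, Slc25a29, Slc25a33, Slc25a35, Slc25a42 and Slc25a45, of which Slc25a13 and Slc25a45 had the opposite sign on log2(TPM + 1), and Slc25a24 rose. Between the mean of both knockout and the mean of both control groups, which reuses these libraries, 15 members fell and 4 rose, where 10.5% of all genes were called (5.86% lower, 4.67% higher). At an unadjusted p under 0.05, 15, 23 and 28 members passed, where 11.7, 15.9 and 21.1% of all genes did. The adjusted calls come from edgeR's quasi-likelihood test with TMM scaling and the default count filter, with Benjamini-Hochberg adjustment over all tested genes at 0.05. In what follows, called, rose and fell refer to that fit unless another is named.

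Diet alone called no member. In the edgeR fit of all 23 libraries, CT-HK against CT-NK and KO-LK against KO-NK gave 0 calls among all genes as well (0%). DESeq2 called 20 and 25 genes there, and edgeR with a stricter filter (5 CPM in 5 libraries) called 1 and 10. Without CT-HK replicate 6, which was richest in proximal tubule markers, edgeR called 169 of 25594 genes in CT-HK against CT-NK, 3.55% of them higher. Of all these genes 0 were members. At an unadjusted p under 0.05, 2 and 4 members passed, where 3.59 and 2.83% of all genes did. No member's groups were free of overlap, in CT-HK against CT-NK (0.0697% of all genes higher and 0.0542% lower) or in KO-LK against KO-NK (0.108% and 0.166%). Whether the knockout difference itself changed with diet was not tested.

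The direction of the family as a whole depended on the scaling. Its median log2 fold change was -0.25 in KO-NK against CT-NK and -0.33 in KO-LK against CT-HK, beside 0.15 and -0.01 for all tested genes, and 32 and 35 of the 44 members were negative. With library totals in place of TMM factors, the all-gene medians moved to 0.34 and 0.28 and the family medians to -0.09 and -0.01. On log2(TPM + 1), which has no composition scaling, limma placed the all-gene medians at 0.29 and 0.36 and the family medians above 0, at 0.11 and 0.21. The split of called members moved with them: between KO-LK and CT-HK, 6 fell and 5 rose by library totals, and 3 fell and 13 rose on log2(TPM + 1), where 96.6% of all called genes were higher. Among all genes, library totals called 4691 of 25829 there (87.5% higher) and limma on log2(TPM + 1) called 7090 of 19668. Relative to all genes the family was lower in each of the 13 other settings for both comparisons, with differences of -0.43 to -0.18 and of -0.36 to -0.16 on the log2 scale. These settings reuse the same libraries, and the genes compared include many of low count. With the stricter filter (5 CPM in 5 libraries), the all-gene median on normal potassium was 0.012. The family's difference from it was then -0.235, against -0.403 in the edgeR fit with the default filter. TMM factors averaged 0.923 in control and 1.093 in knockout libraries.

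**Figure D2:**
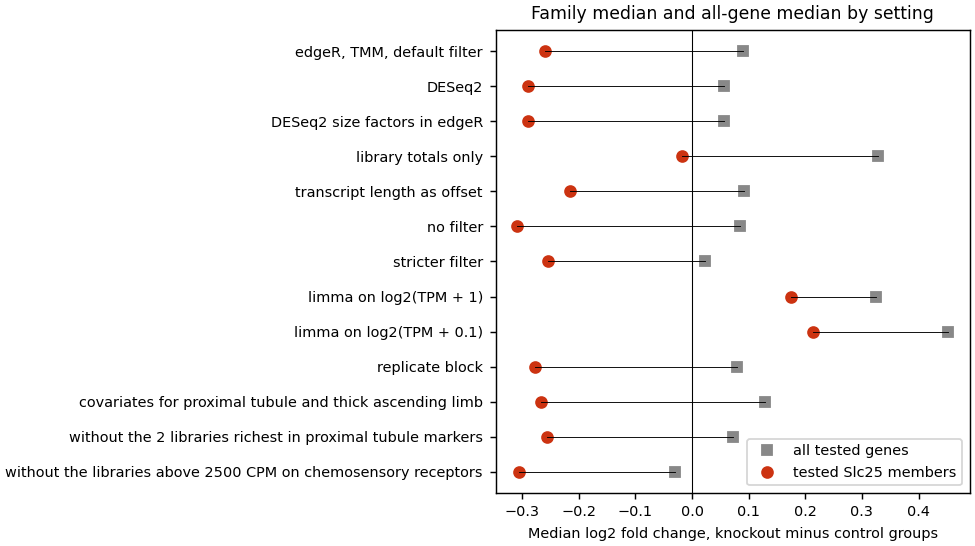
Median log2 fold change of knockout against control groups for the tested Slc25 members (circles) and for all tested genes (squares) in the edgeR fit and under 12 other settings. The family lies left of all genes in every row, and it crosses 0 to the right in the 2 limma fits on TPM.

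The ADP/ATP translocases and the ATP-magnesium/phosphate carriers exchange adenine nucleotides, and the members of this group did not all move the same way. Of 6 tested members of this group, 3 fell (Slc25a4, Slc25a5 and, with the opposite sign on log2(TPM + 1), Slc25a23) and 2 rose (Slc25a24 and Slc25a25) in knockout against control over both diets. The sixth, Slc25a41, was not called.

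Slc25a4 (chromosome 8, 46206797 to 46211284, minus strand, GRCm38) stood at 903, 681, 813, 597 and 650.4 CPM in the 5 CT-NK libraries. It ran from 639.7 (median 867) to 1055 CPM in CT-HK, from 247 (median 482) to 617 in KO-NK and from 422 (median 458) to 561 in KO-LK. The CT-HK and KO-LK libraries did not overlap, while the highest KO-NK library exceeded the lowest CT-NK library. Its fall was -0.87 (SE 0.18, adjusted p = 0.00368) between KO-LK and CT-HK, and its log2 fold change on normal potassium was -0.62 (SE 0.19, adjusted p = 0.107). Over both diets the fall of -0.75 (SE 0.13, adjusted p = 0.000394) was called under all 12 other settings. Between KO-LK and CT-HK the call was lost in both limma fits on TPM, with -0.30 (adjusted p = 0.0681) on log2(TPM + 1).

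Slc25a5 (chromosome X, 36795651 to 36798807, plus strand) measured 4197, 3025, 4247, 2975 and 3204 CPM in CT-NK. Its lowest, median and highest libraries were 2551, 3752 and 4474 CPM in CT-HK, 1312, 2549.5 and 3093 in KO-NK, and 1733, 2432 and 2844 in KO-LK. Both knockout groups overlapped their controls. Slc25a5 fell by 0.60 on the log2 scale over both diets (SE 0.15, adjusted p = 0.012), but not within either diet pair (adjusted p = 0.275 and 0.0841). Per length, its group means were close, 2598 and 2328 TPM in the controls and 2209 and 2208 TPM in the knockouts, and limma on log2(TPM + 1) did not call it (-0.16, adjusted p = 0.242).

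Slc25a24 (chromosome 3, 109123149 to 109168457, plus strand) was, per length, the least abundant of the ATP-magnesium/phosphate carriers Slc25a23, Slc25a24 and Slc25a25. It stood at 4.18, 3.35, 5.00, 3.97 and 4.31 CPM in CT-NK. Its lowest, median and highest values were 3.64, 4.40 and 6.42 CPM in CT-HK, 3.96, 6.64 and 11.1 in KO-NK, and 7.88, 10.5 and 13.2 in KO-LK. Every KO-LK library exceeded every CT-HK library, while the lower KO-NK libraries fell within the CT-NK range. The rise was 1.19 (SE 0.23, adjusted p = 0.0017) between KO-LK and CT-HK, against 0.71 (SE 0.24, adjusted p = 0.149) on normal potassium. It remained called between KO-LK and CT-HK under all 13 other settings, and in TPM the group means were 0.931 and 0.906 in controls, 1.92 in KO-NK and 3.00 in KO-LK.

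Slc25a25, another ATP-magnesium/phosphate carrier, stood at 87.6, 67.5, 82.3, 99.97 and 53.4 CPM in CT-NK. Its range was 33.4 to 94.7 CPM (median 62.5) in CT-HK, 99.8 to 200.3 (median 123) in KO-NK and 56.7 to 119 (median 87.9) in KO-LK. The lowest KO-NK library, at 99.77 CPM, was level with the highest CT-NK library and the other KO-NK libraries lay above it, while KO-LK and CT-HK overlapped widely. Over both diets it rose by 0.67 (SE 0.18, adjusted p = 0.0141), a call that ended without the libraries rich in receptor counts (0.70, adjusted p = 0.0753) and without a count filter (0.62, adjusted p = 0.0509). Its exons overlap those of Naif1 on the other strand, at 8.77 CPM, and the library kit does not mark strand. Slc25a23, the third carrier of this kind, averaged 70.0 ± 14.9 (CT-NK) and 74.6 ± 9.21 CPM (CT-HK) in controls, and 58.8 ± 9.81 (KO-NK) and 56.2 ± 6.24 (KO-LK) in knockouts, and its fall over both diets (-0.33, adjusted p = 0.0292) turned to 0.12 on log2(TPM + 1). That fall was also lost without CT-NK replicate 1 or 3 or CT-HK replicate 1, up to an adjusted p of 0.0722.

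The phosphate carrier Slc25a3 (chromosome 10, 91116574 to 91124059, minus strand) delivers phosphate for ATP synthesis. CT-NK libraries measured 1895, 1716, 2214, 1630.5 and 1715 CPM of Slc25a3. The other groups ran from 1456 to 2149 CPM (median 1751) in CT-HK, from 823 to 1485 (median 1457) in KO-NK and from 916 to 1446 (median 1101) in KO-LK. Neither knockout group overlapped its control group, a separation seen for 4 members lower on normal potassium (1% of all genes) and for 7 lower between KO-LK and CT-HK (2.33% of all genes), with 1 higher there (1.66%). Slc25a3 fell by 0.63 between KO-LK and CT-HK (SE 0.17, adjusted p = 0.0223), and its log2 fold change was -0.47 on normal potassium (SE 0.17, adjusted p = 0.21). Leaving out any of 6 single libraries (CT-HK replicate 2 or KO-LK replicates 1, 2, 3, 4 or 6) ended the first of these calls, up to an adjusted p of 0.104. The call over both diets (-0.55, adjusted p = 0.00315) did not depend on any single library but was lost on log2(TPM + 1) (-0.11, adjusted p = 0.374). The call between KO-LK and CT-HK was lost under 6 of 13 other settings, with -0.07 (adjusted p = 0.741) on log2(TPM + 1).

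Among carriers of di- and tricarboxylates, 2 of 4 tested members fell over both diets, Slc25a11 and Slc25a10. Slc25a11 (chromosome 11, 70644196 to 70647479, minus strand), which exchanges 2-oxoglutarate for malate in the malate-aspartate shuttle, stood at 474, 412, 449, 372 and 399 CPM in CT-NK. Its lowest, median and highest libraries were 375, 465 and 599.9 CPM in CT-HK, 179.8, 305 and 339 in KO-NK, and 226, 264 and 313 in KO-LK. Every one of the 12 knockout libraries lay below all 11 control libraries. It fell by 0.80 between KO-LK and CT-HK (SE 0.15, adjusted p = 0.00189) and its log2 fold change on normal potassium was -0.53 (SE 0.16, adjusted p = 0.0994). Between KO-LK and CT-HK the fall was not called on log2(TPM + 1) (-0.21, adjusted p = 0.174). Its exons overlap Rnf167 on the other strand by up to 189 bases, and Rnf167 changed by 0.01 over both diets (adjusted p = 0.984).

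Slc25a10 is the dicarboxylate carrier, and its level varied widely among control libraries. The CT-NK libraries held 192, 124, 111, 207 and 339 CPM of it. CT-HK ran from 81.8 to 469 CPM (median 115), KO-NK from 70.7 to 149.9 (median 89.5) and KO-LK from 61.6 to 92.0 (median 79.3). Its highest values, 339 and 469 CPM, were in CT-NK replicate 5 and CT-HK replicate 6, the 2 libraries richest in proximal tubule markers. Slc25a10 fell by 1.03 over both diets (SE 0.26, adjusted p = 0.00933), and by 0.56 (adjusted p = 0.0257) without those 2 libraries. The call was lost on log2(TPM + 1) (-0.37, adjusted p = 0.182) and without the receptor-rich libraries (-1.12, adjusted p = 0.0763). The citrate carrier Slc25a1 was not called by the edgeR fit, but over both diets DESeq2 and edgeR with a stricter filter called it lower and limma on log2(TPM + 1) called it higher. Its CT-NK libraries held 174, 128, 154, 140.3 and 169 CPM, and it ranged over 107 to 170.1 (median 144) in CT-HK, 87.0 to 143 (median 121) in KO-NK and 111 to 142 (median 116) in KO-LK. Its log2 fold change over both diets was -0.26, with an interval of -0.46 to -0.06 and an adjusted p of 0.0921.

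The aspartate-glutamate carriers are the other carriers of the malate-aspartate shuttle. Slc25a13 stood at 87.3, 60.2, 62.3, 58.5 and 68.9 CPM in CT-NK. It ranged over 56.6 to 101 CPM (median 76.0) in CT-HK, 37.8 to 67.0 (median 60.5) in KO-NK and 44.7 to 63.1 (median 50.9) in KO-LK, with overlap in both pairs. Its fall between KO-LK and CT-HK (-0.55, adjusted p = 0.0446) ended without any 1 of 10 of the 12 libraries (all but CT-HK replicates 4 and 5), up to an adjusted p of 0.164, and reversed to 0.03 on log2(TPM + 1). Its fall over both diets (-0.40, adjusted p = 0.0278) ended without any 1 of 8 libraries (CT-NK replicates 1 and 5, CT-HK replicates 2 and 6, KO-LK replicates 1, 3, 5 and 6), up to 0.0712, and reversed to 0.09. Slc25a12, at 64.2 TPM over all libraries, was not called (-0.21 over both diets, interval -0.48 to 0.06), though edgeR with a stricter filter called it lower between KO-LK and CT-HK. The glutamate carriers Slc25a18 and Slc25a22 were not called either, under any setting run on all 23 libraries.

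Of 5 tested carriers of carnitine and amino acids, only Slc25a29 was called by the edgeR fit with TMM scaling and the default filter. Slc25a29 (chromosome 12, 108825873 to 108835883, minus strand) carries basic amino acids such as arginine and lysine into mitochondria. It measured 40.0, 32.1, 31.4, 24.0 and 20.9 CPM in CT-NK. Its lowest, median and highest libraries were 24.5, 34.4 and 41.9 CPM in CT-HK, 8.75, 12.4 and 18.4 in KO-NK, and 7.28, 11.001 and 12.1 in KO-LK. All 12 knockout libraries lay below all 11 control libraries, a separation of 3 members in this direction (0.422% of all genes) and of 0 in the other (0.248%). The fall was -1.16 on normal potassium (SE 0.20, adjusted p = 0.0024) and -1.68 between KO-LK and CT-HK (SE 0.20, adjusted p = 1.21e-05). Over both diets it was -1.42 (SE 0.14, adjusted p = 4.06e-07). Both pairwise calls held under all 13 other settings and without any single library. The weakest on normal potassium was without the receptor-rich libraries (-1.07, adjusted p = 0.0483). In TPM the control means were 12.5 and 12.3 and the knockout means 7.02 and 5.81. Not called were the carnitine/acylcarnitine carrier Slc25a20 (0.00 over both diets), the ornithine carrier Slc25a15 (-0.79, adjusted p = 0.0691), Slc25a38 (-0.35) and Slc25a44 (0.07). Over both diets DESeq2 and edgeR with a stricter filter called Slc25a15 and Slc25a38 lower. Limma on log2(TPM + 1) called Slc25a20 and Slc25a44 higher there, as edgeR with library totals did for Slc25a44. Slc25a15 was highest in the 2 libraries richest in proximal tubule markers, at 56.6 CPM (CT-NK replicate 5) and 80.1 CPM (CT-HK replicate 6).

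**Figure D3:**
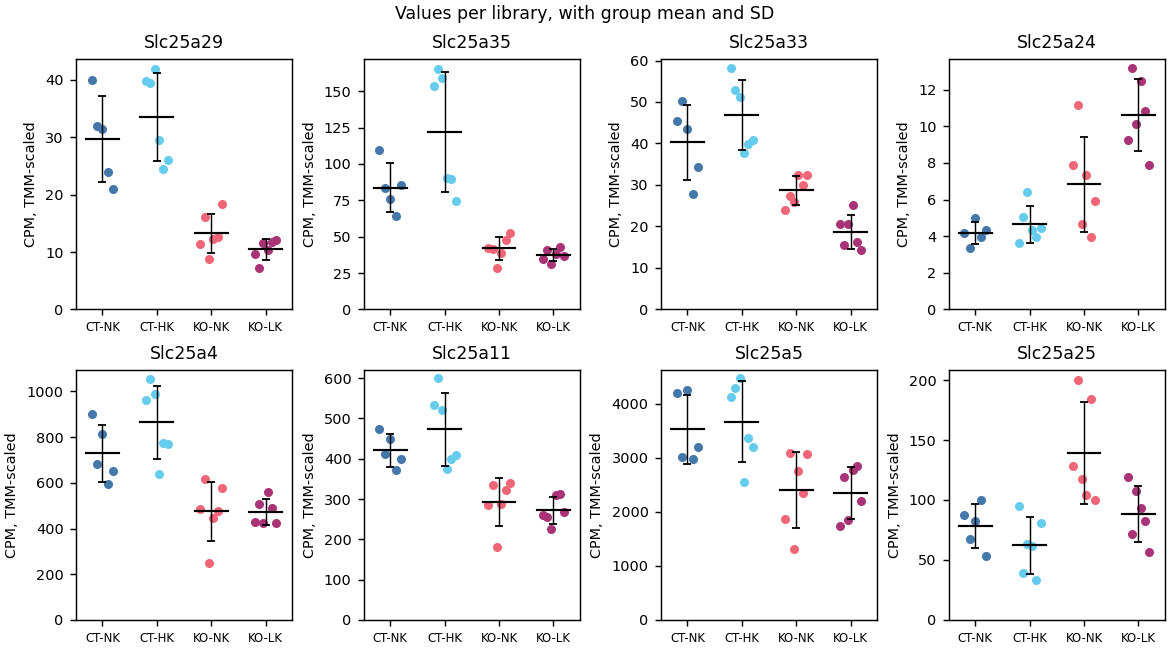
TMM-scaled CPM per library in the 4 groups for members with calls, with 1 point per library, a line at each group mean and a bar for the SD. For Slc25a29, Slc25a35 and Slc25a11 the 12 knockout libraries lie below the 11 control libraries, while for Slc25a24 only KO-LK stands clear of its control group.

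Slc25a35 (chromosome 11, 68968131 to 68974365, plus strand), whose substrate is not stated here, changed as much as Slc25a29. It stood at 109.7, 83.7, 76.0, 64.2 and 85.4 CPM in CT-NK. CT-HK libraries 1 to 3 held 154, 165 and 159 CPM and libraries 4 to 6 held 90.4, 89.6 and 74.8 CPM. It ran from 28.6 (median 42.0) to 52.2 CPM in KO-NK and from 31.0 (median 37.3) to 42.9 CPM in KO-LK. No knockout library reached the lowest control library. The fall was -0.999 on normal potassium (SE 0.20, adjusted p = 0.00792) and -1.71 between KO-LK and CT-HK (SE 0.19, adjusted p = 7.03e-06), and both held under all 13 other settings and without any single library. The first was near the threshold without the receptor-rich libraries (-1.02, adjusted p = 0.0462). Up to 545 bases of its exons overlap exons of Rangrf on the opposite strand, and the library kit does not mark strand. Rangrf, at 15.7 CPM, fell by 0.82 over both diets (adjusted p = 9.5e-05), and reads of the overlap cannot be assigned to either gene.

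Slc25a47, which lies next to Slc25a29 on chromosome 12 on the other strand, stood at 5.85, 4.89, 2.96, 1.83 and 3.67 CPM in CT-NK. Its ranges were 2.19 to 7.29 CPM (median 4.13) in CT-HK, 1.70 to 3.39 (median 2.14) in KO-NK and 1.30 to 3.10 (median 2.45) in KO-LK, which overlap. It fell by 0.83 over both diets (SE 0.22, adjusted p = 0.0161) and was not called in either pair. That call was lost under 5 of 11 other settings, with -0.25 (adjusted p = 0.219) on log2(TPM + 1), while DESeq2 also called it lower between KO-LK and CT-HK. Slc25a45 stood at 32.7, 28.9, 32.6, 27.9 and 38.0 CPM in CT-NK, over 24.0 to 43.0 (median 35.0) in CT-HK, 24.4 to 40.6 (median 34.1) in KO-NK and 16.8 to 29.0 (median 23.4) in KO-LK. Its fall between KO-LK and CT-HK (-0.58, adjusted p = 0.0263) ended without any 1 of 9 of the 12 libraries (all but CT-HK replicates 1, 4 and 5), up to an adjusted p of 0.169, and reversed to 0.08 on log2(TPM + 1). Slc25a34 and Slc25a48 had log2 fold changes over both diets of -1.28 (SE 0.50, adjusted p = 0.114) and -1.18 (SE 0.46, adjusted p = 0.11), and were not called in any comparison of the edgeR fit. DESeq2 called both lower over both diets. Slc25a48 was highest, at 17.7 CPM, in CT-NK replicate 5 and CT-HK replicate 6, the 2 libraries richest in proximal tubule markers. CT-HK replicate 6 also held the highest value of Slc25a34, at 6.46 CPM.

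Carriers of cofactors, glutathione and pyrimidine nucleotides form the largest role group, with 11 tested members, of which 5 fell and 1 rose over both diets. Slc25a33 (chromosome 4, 149744036 to 149774277, minus strand) and Slc25a36 (chromosome 9, 97074961 to 97111157, minus strand) carry pyrimidine nucleotides for mitochondrial DNA and RNA synthesis. Slc25a33 measured 45.4, 50.3, 43.5, 27.9 and 34.3 CPM in CT-NK. It ran over 37.6, 46.0 and 58.2 CPM (lowest, median, highest) in CT-HK, 24.0, 28.7 and 32.4 in KO-NK, and 14.3, 18.4 and 25.1 in KO-LK. KO-LK lay wholly below CT-HK, whereas KO-NK overlapped the lowest CT-NK library. Its fall between KO-LK and CT-HK was -1.32 (SE 0.16, adjusted p = 2.02e-05) and held under all 13 other settings, and its log2 fold change on normal potassium was -0.49 (SE 0.17, adjusted p = 0.162). Slc25a36 averaged 66.1 ± 10.8 (CT-NK) and 59.3 ± 7.75 CPM (CT-HK) in controls, and 86.0 ± 12.3 (KO-NK) and 76.5 ± 20.2 (KO-LK) in knockouts, and rose by 0.37 over both diets (SE 0.11, adjusted p = 0.0331). That call was lost under 5 of 12 other settings, and without CT-NK replicate 2, 4 or 5 or CT-HK replicate 3, up to an adjusted p of 0.0757. Slc25a33 exons overlap up to 281 bases of the antisense gene Gm13068, which was near the floor at 0.689 CPM.

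Slc25a39 and Slc25a40 import glutathione, the main thiol antioxidant, into mitochondria. Slc25a39 stood at 659.7, 557, 599.7, 533 and 719 CPM in CT-NK. It ranged over 410.4 to 819 CPM (median 599) in CT-HK, 273 to 558 (median 457) in KO-NK and 346 to 483 (median 385) in KO-LK, with overlap in both pairs. It fell by 0.51 over both diets (SE 0.12, adjusted p = 0.00803), which was -0.05 on log2(TPM + 1) (adjusted p = 0.636), and was lost with the tubule covariates (-0.44, adjusted p = 0.0538). Slc25a40, far lower at 4.71 TPM over all libraries, was not called (-0.09), though limma on log2(TPM + 1) called it higher over both diets.

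Slc25a17 brings coenzyme A and other cofactors into peroxisomes, and Slc25a42 brings coenzyme A into mitochondria. Slc25a17 stood at 105, 60.1, 75.3, 75.9 and 101 CPM in CT-NK. It ranged over 61.0 to 128 CPM (median 100.1) in CT-HK, 38.2 to 87.0 (median 63.1) in KO-NK and 55.3 to 73.7 (median 64.8) in KO-LK. The groups overlapped, and it fell over both diets only (-0.49, adjusted p = 0.0189), a call lost under 6 of 12 other settings, with -0.01 on log2(TPM + 1). It was also lost without CT-NK replicate 5, KO-NK replicate 4 or KO-LK replicate 5 or 6, up to an adjusted p of 0.0617. Slc25a42 stood at 20.8, 11.7, 9.40, 17.6 and 29.5 CPM in CT-NK. It ranged over 13.6 to 35.0 CPM (median 15.2) in CT-HK, 10.6 to 17.3 (median 12.4) in KO-NK and 8.12 to 12.8 (median 9.40) in KO-LK. Its fall between KO-LK and CT-HK (-0.90, SE 0.26, adjusted p = 0.0369) ended without the 2 libraries richest in proximal tubule markers (-0.62, adjusted p = 0.086), where its 2 highest values lay. It also ended without any 1 of 8 libraries (CT-HK replicate 1 or 6 or any KO-LK replicate), up to an adjusted p of 0.166. Slc25a16 also fell over both diets (-0.37, adjusted p = 0.0349), with a reversal to 0.04 on log2(TPM + 1) and a loss without any 1 of 7 control libraries (CT-NK replicates 1, 3 and 5, CT-HK replicates 1, 2, 3 and 6), up to an adjusted p of 0.0903. Slc25a26, Slc25a32 and Slc25a51, which carry S-adenosylmethionine, folate and NAD, were not called in any comparison of the edgeR fit. Over both diets DESeq2 and edgeR with a stricter filter (5 CPM in 5 libraries) called Slc25a26 lower, and limma on log2(TPM + 1) called Slc25a32 and Slc25a51 higher.

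Neither mitoferrin, the iron carriers Slc25a28 and Slc25a37, was called in any comparison of the edgeR fit with the default filter, with log2 fold changes of -0.08 and -0.30 over both diets. DESeq2 and edgeR with a stricter filter called Slc25a37 lower over both diets, and limma on log2(TPM + 1) called Slc25a28 higher. Of the 3 members related to uncoupling proteins, Slc25a27 rose over both diets (0.41, SE 0.13, adjusted p = 0.0376), from 6.71 ± 0.997 and 6.60 ± 1.32 CPM in the controls to 8.50 ± 0.679 in KO-NK and 9.18 ± 1.93 in KO-LK. Its KO-NK libraries all exceeded its CT-NK libraries, a separation that 1.14% of all genes showed in this direction. The call was lost under 6 of 12 other settings and without any 1 of 6 control libraries (CT-NK replicates 1, 2 and 5, CT-HK replicates 1, 5 and 6), up to an adjusted p of 0.0859. Slc25a14 and Slc25a30 were not called by edgeR, and limma on log2(TPM + 1) called both higher over both diets.

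**Figure D4:**
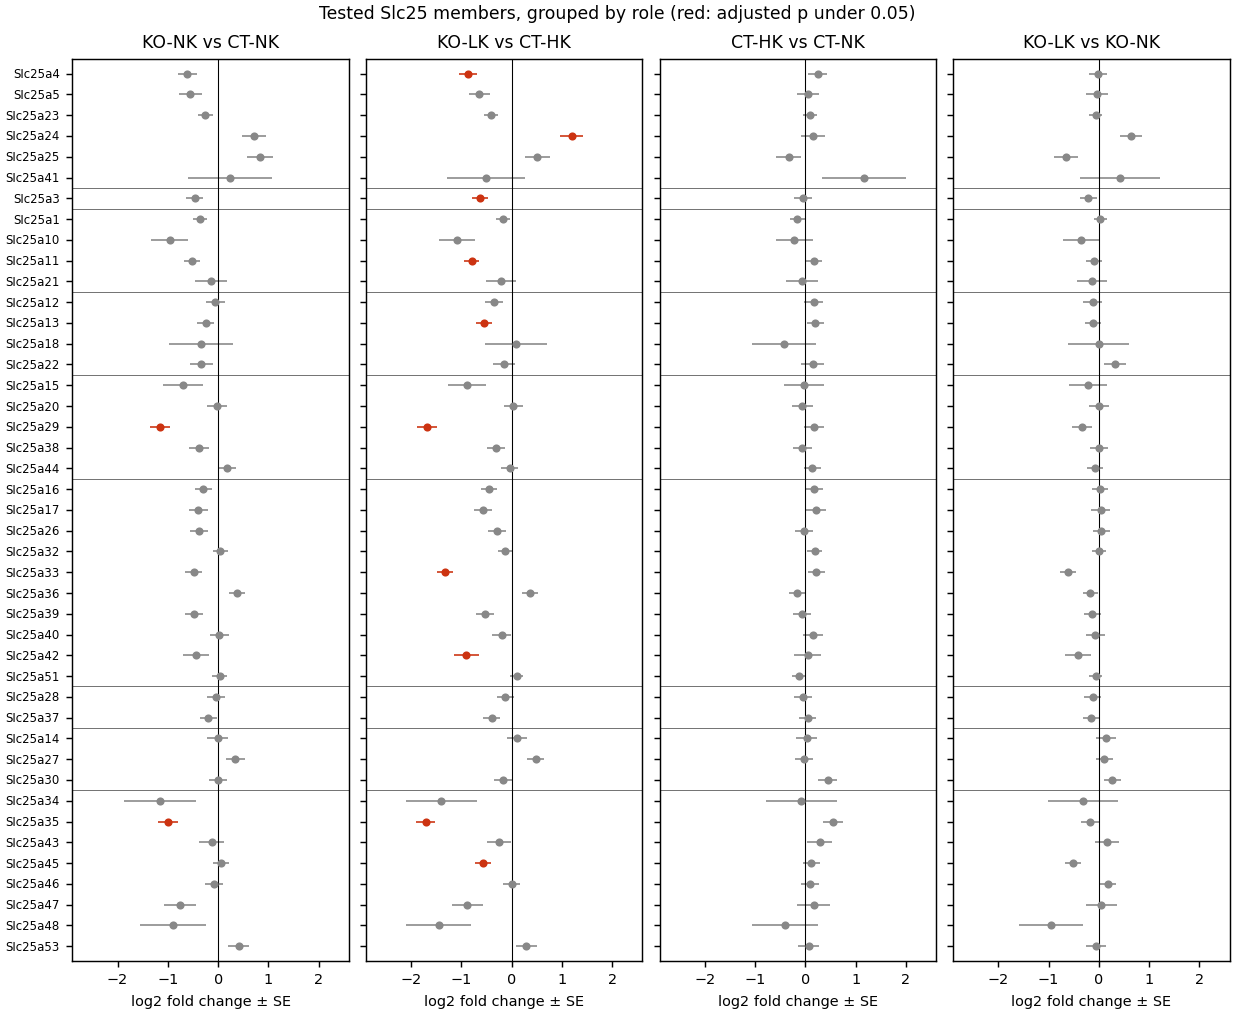
Log2 fold change ± SE of the tested members, 1 of them not drawn, grouped by role, in 4 comparisons from the edgeR fit with TMM scaling, with called members in red. Slc25a29 and Slc25a35 are called lower in both knockout comparisons, no drawn member is called in the 2 diet comparisons, and the family median of both knockout comparisons is below 0 with TMM scaling or library totals but above 0 in limma fits on TPM.

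Chosen after the members' values were seen, paralogs were then compared within each library, as the log2 ratio of their counts, a quantity that library scaling cannot change. This was done for 8 pairs in 2 comparisons, with an exact two-sided permutation test over libraries and Benjamini-Hochberg adjustment over the 16 ratios. The smallest p such a test gave here was 0.00216. The ratio of Slc25a33 to Slc25a36 fell from -0.73 ± 0.32 (SD, n = 5) in CT-NK to -1.58 ± 0.13 (n = 6) in KO-NK, a difference of -0.85 (exact p = 0.00216, adjusted 0.00693). Between CT-HK and KO-LK it fell from -0.35 ± 0.27 to -2.02 ± 0.38 (difference -1.67, exact p = 0.00216, adjusted 0.00693). In neither comparison did the groups overlap. Relative to Slc25a36, Slc25a33 was therefore lower in the knockout libraries whatever the scaling of the libraries.

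The ATP-magnesium/phosphate carriers likewise changed in proportion. The ratio of Slc25a23 to Slc25a24 fell from 4.06 ± 0.28 in CT-NK to 3.17 ± 0.51 in KO-NK (difference -0.89, exact p = 0.0108, adjusted 0.0247) and from 4.02 ± 0.31 in CT-HK to 2.42 ± 0.23 in KO-LK (difference -1.61, exact p = 0.00216, adjusted 0.00693). The first of these calls was lost without any 1 of 7 libraries (CT-NK replicates 1 and 2, KO-NK replicates 1, 2, 3, 4 and 6), up to an adjusted p of 0.0649. The ratio of Slc25a23 to Slc25a25 fell by 1.05 on normal potassium (exact p = 0.00216, adjusted 0.00693) and by 0.97 between CT-HK and KO-LK (exact p = 0.00649, adjusted 0.0173). Slc25a24 to Slc25a25 was not called in either comparison (adjusted p = 0.66 and 0.146).

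The ratio of Slc25a39 to Slc25a40 fell by 0.51 on normal potassium (exact p = 0.00216, adjusted 0.00693) and differed by -0.26 between CT-HK and KO-LK (exact p = 0.338, adjusted 0.429). The ADP/ATP translocases kept nearer to each other: Slc25a4 to Slc25a5 differed by -0.06 (exact p = 0.602, adjusted 0.642) and -0.22 (exact p = 0.0325, adjusted 0.0649), and the second was called when TPM replaced CPM (-0.23, adjusted 0.0433). The aspartate-glutamate carriers and the mitoferrins gave no call in either comparison, with differences of 0.16 to 0.24. Correlations across the 23 libraries, which differ in group and in depth, are given as a description. Log2 CPM of Slc25a4 and Slc25a5 correlated at r = 0.93 and of Slc25a12 and Slc25a13 at 0.63. The r was -0.34 for Slc25a23 with Slc25a24 and -0.24 for Slc25a33 with Slc25a36.

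**Figure D5:**
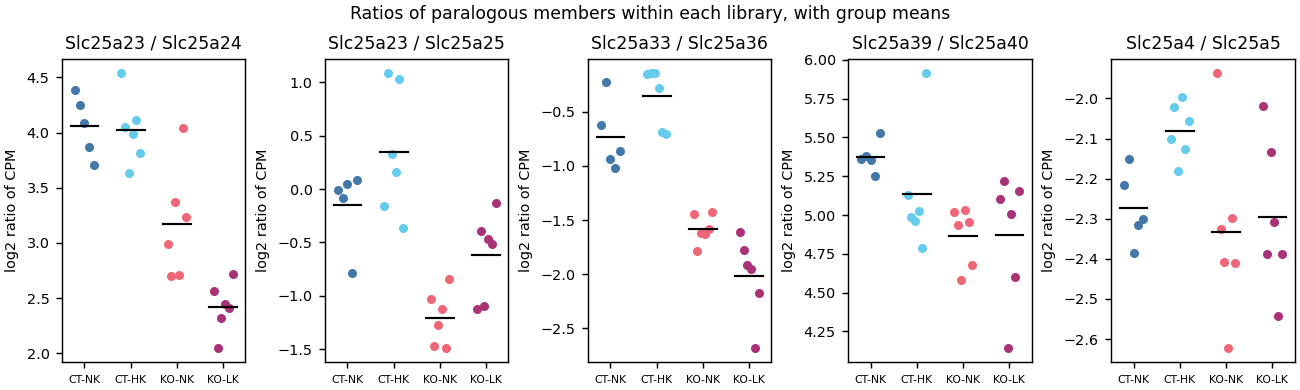
Log2 ratio of CPM of paralogous members within each library, 1 point per library with lines at group means. Slc25a33 to Slc25a36 lies between -1.02 and -0.14 in the control libraries and between -2.69 and -1.43 in the knockout libraries.

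Most members correlated positively with the mean of the others over the 23 libraries, which differ in group and in depth. The part of those differences in the correlations was not tested. The median correlation between pairs of the 44 tested members was 0.32, and whether this exceeds that of other gene pairs was not tested. Slc25a16 followed the mean of the others most closely (r = 0.92). Slc25a53 (-0.69), Slc25a18 (-0.45), Slc25a41 (-0.35), Slc25a27 (-0.34), Slc25a24 (-0.32) and Slc25a25 (-0.15) ran against it. Of these, Slc25a18 and Slc25a41 were near the floor, at 0.352 and 0.304 CPM over all libraries. Outside the family, the 5 genes of 17478 ranked whose log2 CPM was most like the family mean were Atp6v1b2 (0.945), a subunit of the vesicular proton pump, Suclg2 (0.943), a subunit of succinyl-CoA ligase, Pex19 (0.942), a peroxisome import factor, Plekhb2 (0.933) and Pdk2 (0.931), a kinase of pyruvate dehydrogenase.

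In the same edgeR fit with TMM scaling, other mitochondrial genes moved with the carriers. How these genes moved under the other scalings, where the family's direction changed, was not tested. Of 17 enzymes and subunits of the citric acid cycle, 3 fell on normal potassium and 14 between KO-LK and CT-HK, with medians of -0.42 and -0.79. Sdhb and Sdhc, subunits of succinate dehydrogenase, fell in both, Sdhb by 0.71 (adjusted p = 0.0365) and 1.2 (adjusted p = 9.33e-05), and Sdhc by 0.93 (adjusted p = 0.00183) and 0.92 (adjusted p = 0.000388). Of 14 genes of fatty acid oxidation, 1 fell on normal potassium, Echs1 (-0.77, adjusted p = 0.00892), and 10 between KO-LK and CT-HK. All 4 enzymes of the malate-aspartate shuttle fell between KO-LK and CT-HK (Mdh1, Mdh2, Got1 and Got2, by 0.73 to 0.95), where Slc25a11 also fell, and none was called on normal potassium. Mpc1, a subunit of the mitochondrial pyruvate carrier, which belongs to another protein family, fell in both comparisons (-0.81, adjusted p = 0.00961, and -1.09, adjusted p = 0.00013).

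Genes that insert carriers or regulate mitochondrial gene expression were also counted. Of 12 genes for carrier import, 0 and 1 fell (Timm8a1, -0.51, adjusted p = 0.0372). None of the 3 outer membrane channels Vdac1, Vdac2 and Vdac3 was called in either comparison. Of 13 regulators of mitochondrial biogenesis, only Esrra, an estrogen-related receptor, fell between KO-LK and CT-HK (-0.85, adjusted p = 0.0305), and 0 were called on normal potassium. Of 5 relatives under other names (Ucp1, Ucp2, Ucp3, Mtch1 and Mtch2), 0 were called in either. No gene of these lists rose. The lists were drawn up with earlier results of these data known, so their counts are descriptions.

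Markers of tubule segments and cell types were compared in the same fit. All 18 proximal tubule markers were lower in KO-NK than in CT-NK (0 called) and in KO-LK than in CT-HK (2 called, Ass1 and Miox). Their median log2 fold changes were -1.50 and -2.62. The median library sum of these markers was nevertheless close between KO-LK (637 CPM) and CT-HK (698 CPM). Within CT-HK, replicate 6 reached 29828 CPM and the next highest, replicate 1, 842 CPM. For the normal potassium pair the median sums lay further apart, at 1262 (KO-NK) against 6868 CPM (CT-NK). All 4 thick ascending limb markers were higher in the knockout group of each pair, with medians of 1.41 and 0.69, and 1 was called between KO-LK and CT-HK. Without the 2 libraries richest in proximal tubule markers, 2 members were called on normal potassium, and 6 fell and 1 rose between KO-LK and CT-HK. Of all genes, 257 and 1143 of 26968 were then called. When scores of the proximal tubule and thick ascending limb entered the fit as covariates, 2 members were called on normal potassium. Between KO-LK and CT-HK 9 fell and 1 rose, and the all-gene calls were 271 and 1071 of 25829. Without the 8 libraries above 2500 CPM on receptor genes, 2 members were called on normal potassium. In the other pair 6 fell and 1 rose, and the all-gene calls were 279 and 889 of 22357. Of the 4 connecting tubule markers, 2 were called lower in each pair, Calb1 and S100g. Trpv5 and Slc8a1 were not called in either, and 1 of the 2 was higher in knockouts in each pair (0.67 and 0.44). The fall of Calb1 (-1.24, adjusted p = 0.0439, and -2.53, adjusted p = 2.55e-05) and S100g (-1.96, adjusted p = 0.00241, and -2.39, adjusted p = 9.31e-05) went the same way as the carriers, and its part in the results was not tested. Principal cell markers, 6 in number, had medians of 0.08 and 0.20 in the 2 pairs. None of them was called on normal potassium, and 1 was higher and 0 lower between KO-LK and CT-HK. For 6 intercalated cell markers the medians were -0.06 and 0.10, with 0 called in either pair.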

How the data were processed

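Estimated counts and TPM per gene were deposited for 23 libraries. The submitters' processing notes name Salmon 0.14.10 and the build GRCm38.p6, and the labels' protocols name the SMART-Seq HT and Nextera XT kits. The authors deposited expected counts (35.9% not whole), which were rounded here, and the authors deposited TPM on a linear scale. Gene IDs were named from GENCODE M21, which matched all 54393. Depth was 16158408 to 34154475 counts per library.

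edgeR 4.0.16 (R 4.3.3) fitted all 23 libraries by group with TMM scaling, its default count filter and the quasi-likelihood test, with Benjamini-Hochberg adjustment over 25829 genes and a threshold of 0.05. DESeq2 1.42.0 and limma 3.58.1 on log2(TPM + 1) or log2(TPM + 0.1), other scalings, filters and covariates, and leaving out libraries were alternatives. The edgeR and DESeq2 fits were run on counts simulated from the fitted means and spreads, and the ratio test on simulated normal values. Their outcomes are not given here. These simulations held no differences in tubule or receptor content, so they cannot check the choice of scaling. Values per library are given for up to 16 called members of smallest p and the 6 members of highest mean TPM. The members and lists were chosen with earlier results of these data known. No 2 libraries of a group were duplicates (smallest chi-square per degree of freedom 23.5 over 55 pairs). Intervals and tests of counts without molecular identifiers cover the spread between libraries only. Values of 1 member are not reported here, and the counts over the family include it.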

Additional observations from a re-analysis of the deposited data

Results flagged for a closer look

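Of 68 groups of member values examined, 4 had a library whose gap to the nearest other library was large against the group's range. Chance gives about 1 such group in 20. In KO-NK, replicate 3 was the lowest for Slc25a11, at 179.8 CPM where the others ran from 285 to 339, and for Slc25a3, at 823 CPM where the others ran from 1248 to 1485. The same library had 8979 CPM on chemosensory receptor genes, the highest total of any library. In CT-HK, replicate 6 was the highest for Slc25a10, at 469 CPM where the others ran from 81.8 to 132, and for Slc25a42, at 35.0 CPM where the others ran from 13.6 to 16.6. That library also had the highest sum of proximal tubule markers, 29828 CPM. The part of these totals in the 4 values was not tested.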

How the results depend on the processing

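On normal potassium the 2 calls, both lower, became 8 with DESeq2 (6 lower), 8 with library totals (4 lower), 15 with a stricter filter (12 lower) and 8 with either limma fit on TPM (2 lower, 6 higher), where the family median was 0.11 and 0.13. The stricter filter tested 40 members and limma 41. Among all genes DESeq2 called 1169 and library totals 2208 of 25829, the stricter filter 2462 of 12421, and limma on log2(TPM + 1) 3438 of 19668. Between KO-LK and CT-HK the 10 calls, 9 lower, became 18 with DESeq2 (17 lower), 20 with a stricter filter (17 lower), 16 with either limma fit (3 lower, 13 higher, with medians of 0.21 and 0.25), and 6 with transcript length as offset, with no filter or with the replicate block, and the median was -0.014 with library totals. There DESeq2 called 2413 of 25829 genes, the stricter filter 3150 of 12421 and limma on log2(TPM + 1) 7090 of 19668. Length as offset, no filter and the replicate block called 1259 of 25829, 825 of 51822 and 1074 of 25829. Over both diets the 19 calls, 15 lower and 4 higher, became 21 with either limma fit (4 lower, 17 higher), 12 with no filter, 12 with the tubule covariates and 11 without the receptor-rich libraries, and the median was -0.018 with library totals and 0.18 and 0.21 with limma. All-gene calls were 8124 of 19668 (limma on log2(TPM + 1)), 1692 of 51822, 1610 of 25829 and 1967 of 22357. Slc25a13 and Slc25a45 between KO-LK and CT-HK reversed under limma (0.026 and 0.028, 0.079 and 0.085), as did Slc25a13 (0.087 and 0.092), Slc25a23 (0.12 and 0.12) and Slc25a16 (0.039 and 0.041) over both diets. The cause was not tested.

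Leaving out 1 library gave 2 to 5 calls on normal potassium (median -0.33 to -0.15), 6 to 14 between KO-LK and CT-HK (-0.37 to -0.20), 0 to 0 for CT-HK against CT-NK (0.01 to 0.15) and for KO-LK against KO-NK (-0.11 to 0.01), and 13 to 21 over both diets (-0.30 to -0.20). Counts moved by over 1.5 times without KO-NK replicate 3 (5) or 6 (4) on normal potassium, and without KO-LK replicate 1 (6) between KO-LK and CT-HK. All-gene calls without these were 919 of 24971, 652 of 25789 and 1526 of 25613. Without KO-NK replicate 2 or 5 the count was 3. Replicate numbers did not pair libraries: 33 same-numbered pairs had a median correlation of -0.15, 10 were over 0.1, and 0 of 23 libraries correlated best with their own number. With the replicate block, 2, 6 and 14 members were called in the 3 knockout comparisons, beside 394, 1074 and 2182 of 25829 genes. Slc25a29 and Slc25a35 kept their calls under every setting run. On normal potassium these calls were near the threshold without the receptor-rich libraries, at edgeR adjusted p of 0.0483 and 0.0462.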
